A study of Drosophila melanogaster with 54 samples.

Results

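The male Drosophila melanogaster cell line S2 was compared with whole male embryos late in embryogenesis, using the RNA-seq libraries of the control arm of each. These are 6 of the 54 libraries, in 2 of the 14 groups, and they were joined gene by gene from 2 deposited count tables. The S2 libraries are of S2 (Dmel-2) cells, grown in the serum-free medium Express 5 with Glutamax, which had received dsRNA against GFP as a control, at 10 ug per 1000000 cells for 3 days at 25 °C (S2 cells, n = 3). The embryo libraries (control males) came from pools of 25 embryos aged 14 to 16 h (stage 15, St15, n = 3). Their mothers carried mat-a-tubGal4, a driver active in the female germline (stock 7062), and the control labelled controlRNAi (stock 36304), and were mated to siblings. These embryos carried a Sxl-GFP reporter and were picked as males because they lacked GFP. The GFP-positive sisters (control females, n = 3) are given as a background only. Source, culture and table differ together between S2 cells and embryos, so that none of them can be told apart from the others in any value. The embryos are mixtures of all tissues, and fewer cells of a type cannot be told apart from less RNA per cell. Separate cultures are not stated for the 3 S2 libraries, so p-values measure the spread between these libraries, which may be technical.

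In flies the single male X is transcribed at a raised rate by the male-specific lethal (MSL) complex, in which MSL-1, MSL-2, MSL-3, the helicase MLE and the acetyltransferase MOF act with the noncoding RNAs roX1 or roX2, both made from the X. The females lack MSL-2 protein, because the RNA-binding protein Sxl blocks its translation. S2 cells were derived from late embryos and are known for features of plasmatocytes, the phagocytic blood cells of the fly, while stage 15 embryos hold differentiating muscle, nervous system, gut, trachea and a cuticle-forming epidermis.

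The libraries held 20487339 to 36863478 counts in S2 cells and 19880371 to 24541975 in control males. By content they did not match in kind, although all are labelled as polyA RNA. Small nuclear, small nucleolar and transfer RNAs took 8.12, 9.52 and 7.96% of counts in S2 cells, against 0.0044, 0.0040 and 0.0039% in control males. RNaseMRP:RNA, the RNA of an endonuclease that processes ribosomal RNA precursors, alone took 2.02, 1.99 and 2.34% in S2 cells and under 0.0001% in each male library. Mitochondrially encoded genes took 0.656, 0.973 and 0.770% in S2 cells, against 4.40, 4.21 and 4.18% in control males. Protein-coding genes held 81.7 to 83.5% of counts in S2 cells and 92.0 to 92.1% in males. The part of this difference in the results below was not tested directly, and main results are repeated on protein-coding nuclear genes, a choice made after the shares were seen. A replication-dependent histone gene, His2B:CG33868, whose messages normally lack a polyA tail, had 209, 131 and 218 CPM (counts scaled to a library total of 1000000) in S2 cells, against 0.122, 0.101 and 0.085 CPM in control males.

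**Figure D1:**
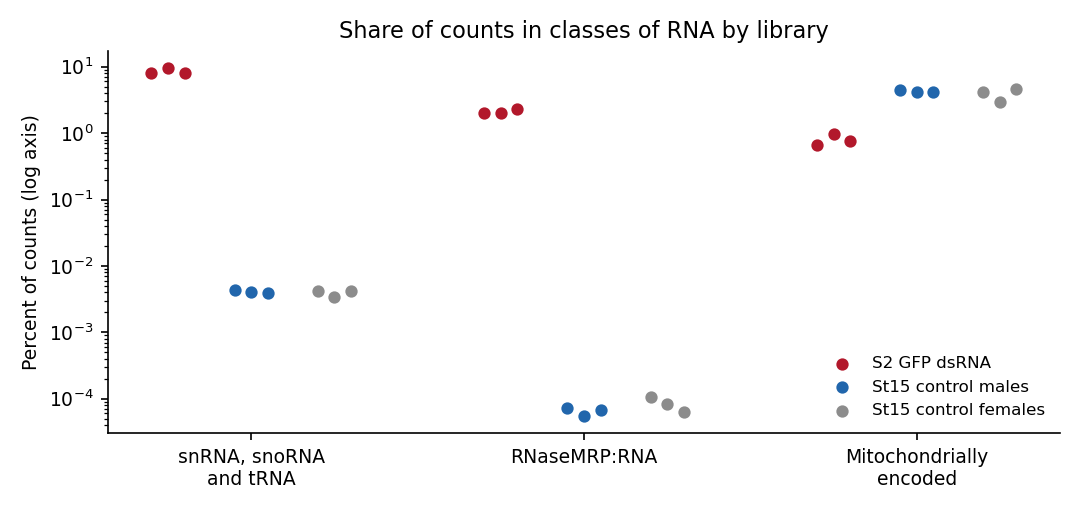
Percent of each library's counts (log axis) in snRNA, snoRNA and tRNA genes, in RNaseMRP:RNA and in mitochondrially encoded genes, with 1 point per library for S2 cells, St15 control males and St15 control females. Small noncoding RNAs lie between 7.96 and 9.52% in S2 cells and near 0.004% in both kinds of embryo.

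In each group replicate 2 stood apart. In S2 cells, 9 genes of at least 10 CPM lay at least 4-fold above both other libraries in replicate 2, among them ribosomal RNA genes and pseudogenes, 1 snoRNA gene and 1 gene without annotation. In control males, replicate 2 had 56 such genes, among them cuticle genes such as TwdlN (205 CPM, against 7.99 and 7.39 CPM in replicates 1 and 4) and germline or egg genes such as smg, wisp, tej, mael and AGO3. Replicate 1 had none in either group, S2 replicate 3 had none and male replicate 4 had 1. Some results that rest on these libraries are also given without them, and others only with them.

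S2 cells and control males differed in most genes. Of 11463 genes tested with edgeR's quasi-likelihood test, 10408 (90.8%) passed at an adjusted p under 0.05, 5268 (46%) of them higher in S2 cells and 5140 (44.8%) lower. Which direction held more genes followed the scaling, with 4927 higher and 5414 lower under RLE scaling, and 5562 higher and 4929 lower with none. The libraries of the groups did not overlap in CPM for 93% of genes. Because nearly every gene passed, a pass says little, and the size of a difference carries the description. A difference of at least 8-fold with no overlap was found for 4202 genes (36.7%), 1439 (12.6%) higher and 2763 (24.1%) lower in S2 cells. Among the 10252 protein-coding genes tested, 794 were at least 8-fold higher (7.74%) and 2605 at least 8-fold lower (25.4%). All 227 snoRNA genes tested and 27 of 28 snRNA genes were at least 8-fold higher in S2 cells. With protein-coding nuclear genes alone in the fit, 847 were at least 8-fold higher and 2561 lower.

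Of the 3399 protein-coding genes at least 8-fold apart, 2690 (79.1%) averaged under 1 CPM in the lower group and 709 averaged at least 1 CPM in both. Of all the protein-coding genes tested, 7068 averaged at least 1 CPM in both groups, 607 in S2 cells only and 2198 in control males only. No count was found in any S2 library for 258 of them, nor in any male library for 91. Across the 10252 protein-coding genes the mean log2(CPM + 1) of S2 cells and of control males correlated with a Pearson's r of 0.53, against 0.998 to 0.999 between S2 libraries and 0.989 to 0.997 between male libraries. These are correlations across genes of the same libraries, and genes are not independent replicates. The abundant end was more alike. Of the 20 protein-coding genes with the highest CPM per kilobase of exons, 12 were shared by the groups, and of the 100 highest, 73. Those 20 in S2 cells were led by ribosomal protein genes, RpL41 at 4746 CPM per kb and RpL39 at 2177 CPM per kb. In control males the muscle actin Act57B led, with 6139 CPM per kb.

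roX1 and roX2, the noncoding RNAs of the MSL complex, differed in opposite directions. roX1 (chromosome X, 3857230 to 3862697, minus strand, exon length 5468 bases, positions from Ensembl release 115) had 3.28, 5.08 and 4.04 CPM in S2 cells, against 847, 893 and 873 CPM in control males. It fell by 7.87 ± 0.13 on the log2 scale (SE, adjusted p = 3.44e-12). roX2 (chromosome X, 11579065 to 11580432, plus strand, exon length 1368 bases) had 3690, 4124 and 4144 CPM in S2 cells, against 38.8, 39.1 and 37.5 CPM in control males. It rose by 6.58 ± 0.09 on the log2 scale (adjusted p = 9.76e-13). No library of one group reached the range of the other for either RNA, and every S2 library had more roX2 than roX1 while every male library had more roX1 than roX2. The end of roX1 overlaps the gene ec, which lies on the same arm and had 79.3 ± 5.0 CPM in S2 cells and 176 ± 2.3 CPM in control males (SD, n = 3 each), so reads there could be shared.

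The level of roX1 in S2 cells, 4.13 ± 0.90 CPM, lay below that of the control females, 46.4 ± 7.2 CPM (SD, n = 3 each). The level of roX2 in the same females was 1.64 ± 0.46 CPM, against 38.5 ± 0.86 CPM in their brothers and 3986 ± 256 CPM in S2 cells. roX2 thus made up 99.9% of roX counts in S2 cells, against 4.23% in control males and 3.41% in control females. The log2 ratio of roX2 to roX1 counts was 9.94 ± 0.24 in S2 cells and -4.50 ± 0.05 in control males (SD, n = 3 each; two-sided exact permutation p = 0.1, the smallest that 3 against 3 allows). Summed per kilobase of exons, to allow for the shorter roX2, both RNAs together came to 2915 ± 187 CPM per kb in S2 cells, 15.5 times the 187 ± 4.3 CPM per kb of control males. roX2 alone took 2.82% of all X counts in S2 cells and 0.028% in control males. The roX RNAs were measured in libraries that differ in noncoding content as given above, and its part in the roX levels was not tested. Within the S2 libraries roX1 was low while roX2 was high.

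**Figure D2:**
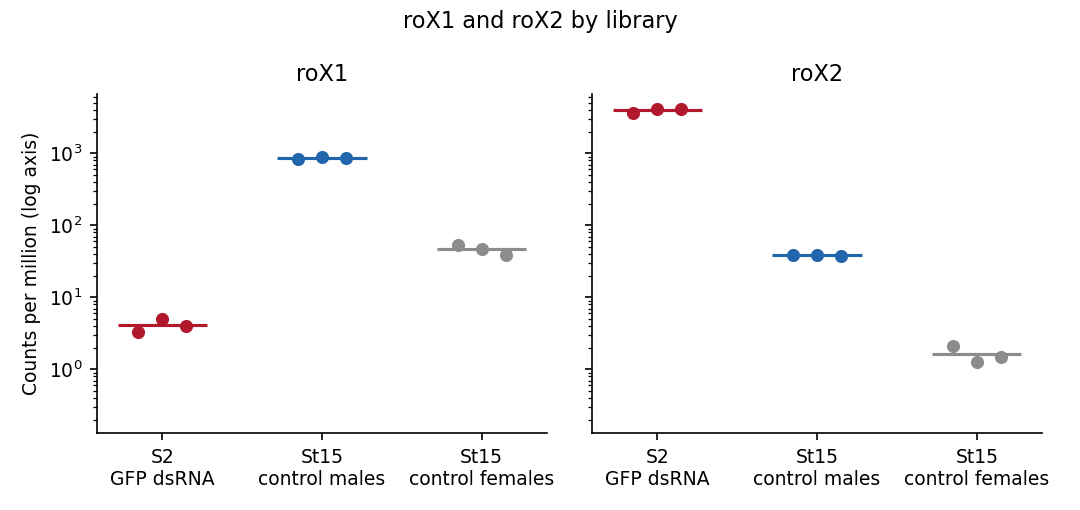
CPM (log axis) of roX1 and roX2, with 1 point per library and a line at the group mean for S2 cells, St15 control males and St15 control females. S2 cells have a mean of 4.13 CPM of roX1 and 3986 CPM of roX2, against 871 and 38.5 CPM in control males.

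Of the protein subunits, msl-1, which scaffolds the complex, differed most. It had 220, 229 and 225 CPM in S2 cells, against 42.2, 56.9 and 40.1 CPM in control males, a rise of 2.16 ± 0.10 on the log2 scale with no overlap. mof, the acetyltransferase that also works outside the complex in both sexes, had 71.8, 65.9 and 70.5 CPM in S2 cells, against 18.5, 38.7 and 19.0 CPM in control males. The male library with 38.7 CPM is replicate 2, and the rise of mof was 1.35 ± 0.29 with it and 1.71 ± 0.08 without it on the log2 scale. msl-2, the subunit limited to males, had 47.5, 48.2 and 48.1 CPM in S2 cells, against 43.6, 47.2 and 47.0 CPM in control males. Its log2 difference of -0.06 ± 0.06 did not pass, and its direction and call followed the scaling. With no scaling factor it was 0.06 and did not pass, whereas it passed as lower at -0.18 with RLE scaling (adjusted p = 0.0202) and at -0.18 with DESeq2 (adjusted p = 0.0147). In control females msl-2 averaged 12.2 CPM. The remaining subunits differed less, with rises of 0.25 ± 0.07 for the chromodomain protein gene msl-3 and 0.40 ± 0.07 for mle. Among listed genes that are not subunits, Clamp, which encodes the zinc finger protein that recruits the complex, rose by 0.48 ± 0.06. The kinase gene JIL-1 fell by 0.41 ± 0.06. In all, 6 of the 9 MSL and roX genes passed as higher and 2 as lower, against 46% and 44.8% of all genes tested. DESeq2 gave msl-3 a log2 change of 0.12 with an adjusted p of 0.155.

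Genes of the NSL complex, in which MOF acts at many promoters, were mixed. nsl1, the scaffold gene, rose by 0.84 ± 0.05, dgt1 by 1.14 ± 0.09 and MBD-R2 by 0.48 ± 0.07 on the log2 scale, while Rcd5 fell by 1.36 ± 0.08. Of the 7 members, 5 passed as higher and 1 as lower, against 46% and 44.8% of all genes tested.

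The sex determination genes were mostly within a few fold, apart from fru, which encodes transcription factors of male neurons and of other tissues. fru had 176, 236 and 188 CPM in S2 cells, against 0.937, 1.06 and 1.02 CPM in control males, a rise of 7.52 ± 0.16 on the log2 scale. dsx, the somatic switch gene, had 0.380, 1.02 and 0.624 CPM in S2 cells and 2.93, 2.21 and 2.21 CPM in control males, and fell by 2.04 ± 0.33. The splicing regulator gene tra, whose active protein is made in females, had 28.8, 26.3 and 30.6 CPM in S2 cells, against 9.98, 10.3 and 9.01 CPM in control males, a rise of 1.43 ± 0.09. tra overlaps l(3)73Ah, dsx overlaps lds, and the sources used here do not say how strand entered the counts, so such values are uncertain. Sxl, the master switch of females, had 169, 205 and 172 CPM in S2 cells, against 243, 245 and 241 CPM in control males and a mean of 525 CPM in control females. It fell by 0.54 ± 0.08, and the embryos also carry the Sxl-GFP reporter, whose reads may count toward Sxl.

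Of 12 Y-linked genes listed, only FDY had enough counts to be tested. It had 0.088, 0.049 and 0.081 CPM in S2 cells, against 8.27, 7.04 and 7.82 CPM in control males and a mean of 0.016 CPM in control females. It fell by 6.70 ± 0.27 on the log2 scale. All Y genes together held 3.71 to 4.53 CPM in S2 cells, against 7.70 to 8.76 CPM in control males and 0.053 to 0.191 CPM in control females. In S2 cells the pseudogene CR41509, at 3.44 ± 0.62 CPM, made up most of this, and it had no count in any male library, which makes it at least 80.2-fold higher in S2 cells. It was named after its values were seen.

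The share of counts from the X differed between the groups by less than the spread of the S2 libraries. The X to autosome log2 ratio, with chromosomes 2, 3 and 4 as autosomes, was -2.53, -2.48 and -2.53 in S2 cells and -2.51, -2.52 and -2.52 in control males. The means were -2.51 ± 0.026 and -2.52 ± 0.005 (SD, n = 3 each), a difference of 0.005 within the spread of S2 libraries (exact permutation test, two-sided, p = 1 before and after adjustment over the 6 arms). On protein-coding genes the means were -2.52 ± 0.005 in S2 cells and -2.52 ± 0.005 in control males (exact permutation p = 0.7), and S2 replicate 2, the highest library on all genes, was at -2.52. Without that library the difference on all genes was -0.010. Control females had -2.42 ± 0.013 on all genes, above every S2 library and every male library. S2 cells lay 0.092 below the females (exact permutation p = 0.1, the smallest possible). Without roX1 and roX2 the X ratio of S2 cells was 0.026 below that of control males (exact permutation p = 0.3). Without the 50 genes with the most counts it was 0.036 above that of control males (exact permutation p = 0.1, the smallest possible).

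**Figure D3:**
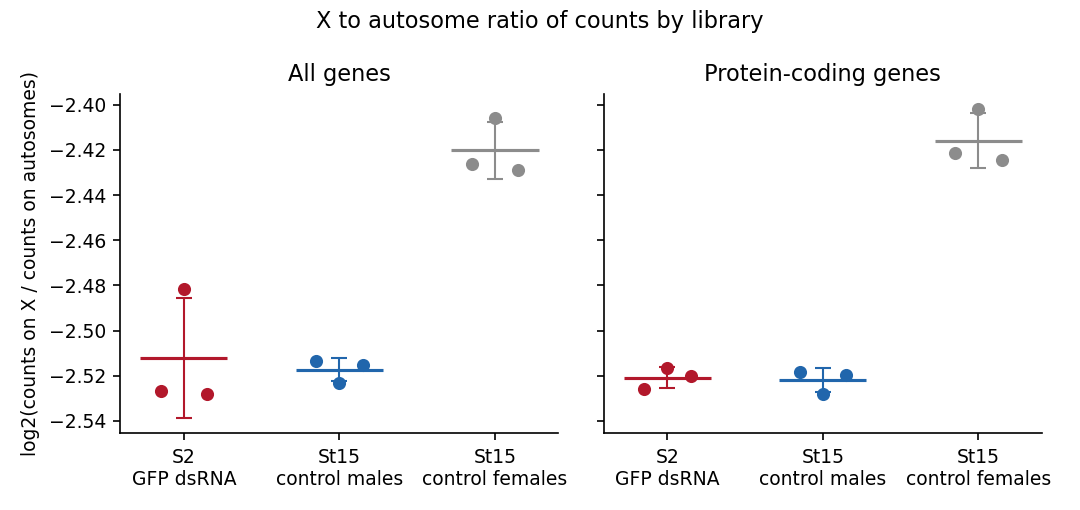
X to autosome log2 ratio of counts per library, with chromosomes 2, 3 and 4 as autosomes, on all genes and on protein-coding genes, for S2 cells, St15 control males and St15 control females (points are libraries, lines are means and bars are SD, n = 3). S2 cells and control males share a range near -2.52 on protein-coding genes, and control females lie near -2.42.

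Measures that weigh each gene alike did not all match this. The median log2 fold change was 0.06 over 1818 tested X genes and 0.04 over 9394 autosomal genes. Within a group, the X minus autosome median of single libraries against their group mean had an SD of 0.0049 (the larger of the groups). That SD is not the spread of the difference of 0.02, which moved to between 0.0270 and 0.0545 as single libraries were left out. The difference turned to -0.0387 among genes of at least 10 CPM in 3 libraries. At least 8-fold lower genes made up 20.1% of tested X genes and 25.0% of autosomal genes, and at least 8-fold higher ones 12.9% and 12.4%. The median level per length of protein-coding X genes stood 0.012 ± 0.009 below that of autosomal genes in S2 cells and 0.098 ± 0.025 below it in control males, as log2(CPM per kb + 1) (SD, n = 3 each; exact permutation p = 0.1, the smallest possible). In control females it stood 0.026 ± 0.013 below. The contrast of S2 cells and control males depended on the genes taken. It was 0.085 over tested genes and 1.02 over all protein-coding genes of the tables, many of which are near 0 in both groups.

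Some other arms differed more. Counts on 2L, relative to counts on all other arms, were higher in S2 cells, with a log2 ratio of -2.06 ± 0.016, against -2.17 ± 0.010 in control males. On protein-coding genes the gap of 2L was wider, at -1.95 ± 0.012 in S2 cells and -2.17 ± 0.010 in control males. Counts on 3R differed by less than the spread of libraries on all genes, at -1.56 ± 0.017 in S2 cells and -1.56 ± 0.018 in control males, but lower in S2 cells on protein-coding genes, at -1.69 ± 0.004 against -1.55 ± 0.018 in control males (exact permutation p = 0.1 for each arm on protein-coding genes, the smallest possible). Chromosome 4 fell to -5.86 ± 0.066 in S2 cells, against -5.16 ± 0.041 in control males, and on protein-coding genes to -5.68 ± 0.081 against -5.16 ± 0.041 (exact permutation p = 0.1 in each case, adjusted p = 0.2 over the 6 arms on all genes). The fourth chromosome carries bt, a giant muscle protein gene, and apolpp, a lipoprotein gene of the fat body, which fell by 9.20 ± 0.11 and 10.97 ± 0.10 on the log2 scale. Its 97 tested genes had a median log2 fold change of -0.34, with 31 higher (32.0%) and 54 lower (55.7%). Of all genes tested, 46% were higher and 44.8% lower.

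Along the arms, windows of 50 neighbouring protein-coding genes tested had medians between -8.78 and 1.31, with a median over the 202 windows of -0.06. The lowest was on 3R at 6111671 to 6690239, where 33 of 50 genes were at least 8-fold lower and 1 higher. Of all protein-coding genes tested, 25.4% were at least 8-fold lower and 7.74% higher. It holds the Osiris genes, a cluster of membrane protein genes of cuticle-secreting epithelia. Osi6 had no count in S2 cells, against 10152, 8207 and 9706 CPM in control males, at least 287714-fold lower by a floor of 3 counts over the group. Osi15 was at least 42502-fold lower. Another low window, on 3R at 26014721 to 26725216, had a median of -4.35 and holds the Tweedle cuticle genes, of which TwdlD was at least 10733-fold lower. The highest window lay on 3L at 3169375 to 3806459, with a median of 1.31. Windows are placed on dm6.

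**Figure D4:**
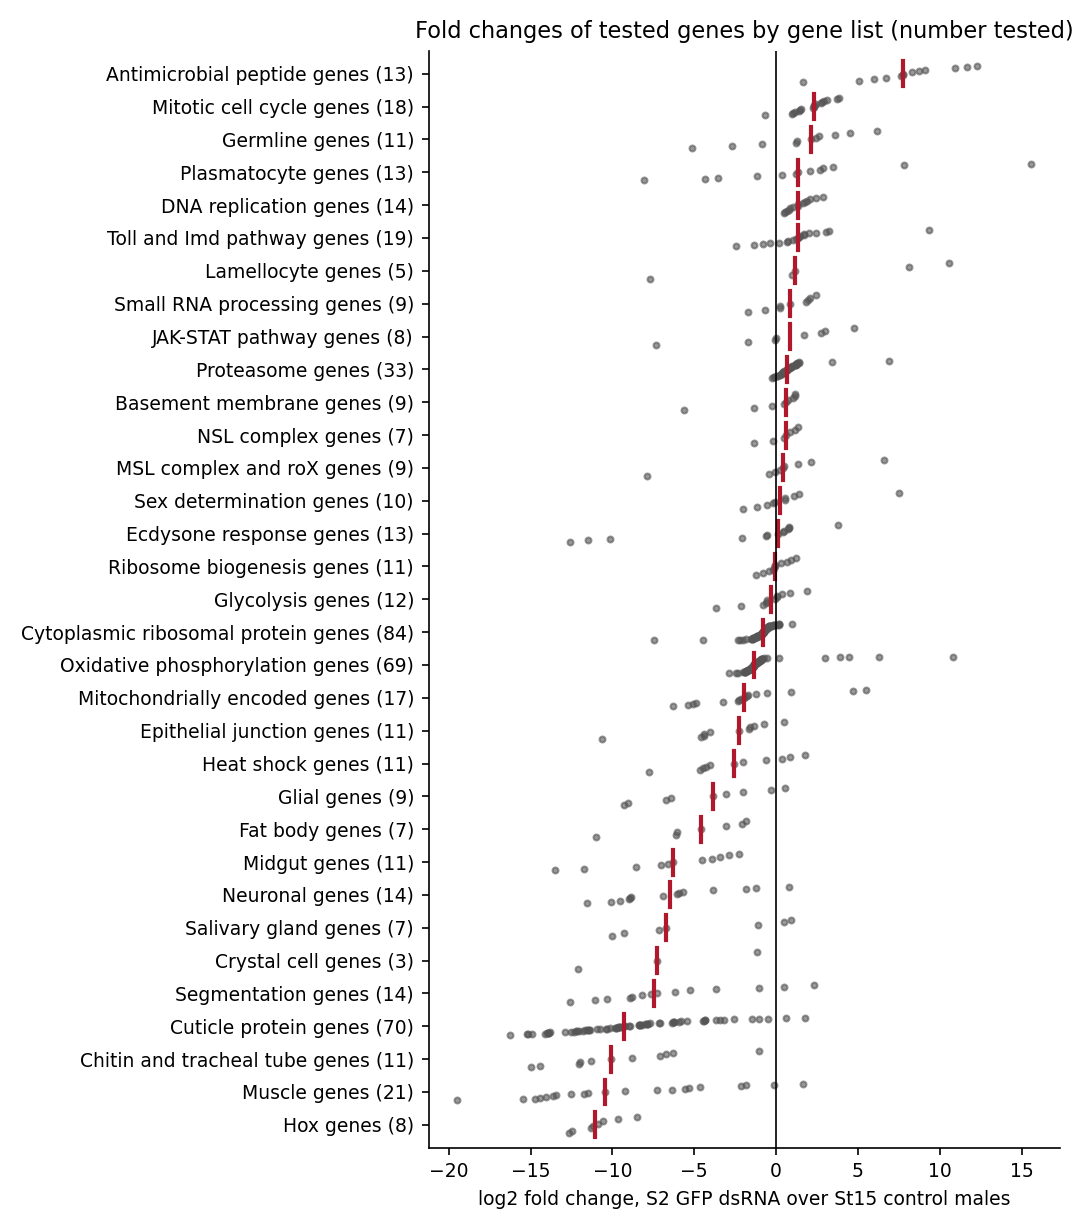
log2 fold change, S2 cells over St15 control males, of every tested member of each gene list (grey points) with the list's median (red bar) and the number tested in parentheses. Antimicrobial peptide genes lie highest, with a median of 7.77, and Hox genes lowest, with a median of -11.03.

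Blood cell markers were split. Of 13 plasmatocyte genes 9 were higher in S2 cells and 4 lower, where 46% and 44.8% of all genes were, with a median log2 fold change of 1.34, against 0.04 over all genes tested. eater, a phagocytic receptor gene, had 234, 241 and 240 CPM in S2 cells and no count in control males, at least 5396-fold higher. Hml, which encodes the clotting protein hemolectin, had 153, 132 and 133 CPM in S2 cells, against 0.204, 1.56 and 0.085 CPM in control males. The receptor gene Pvr, needed for survival of blood cells, had 2830, 2707 and 2851 CPM in S2 cells, against 227, 231 and 234 CPM in control males. These 3 genes had no overlap, and the rise was 7.82 ± 0.55 for Hml and 3.48 ± 0.07 for Pvr on the log2 scale. Hml gave 9.69 ± 0.20 without male replicate 2.

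The scavenger receptor gene crq rose by 2.87 ± 0.06, and the blood transcription factor genes zfh1, ush and srp rose by 2.06 ± 0.10, 1.34 ± 0.07 and 1.21 ± 0.06 on the log2 scale. In contrast NimC4, an apoptotic cell receptor gene, had 0.614, 0.439 and 0.407 CPM in S2 cells, against 129, 124 and 119 CPM in control males. It fell by 8.09 ± 0.13 and overlaps nAChRalpha5. The peroxidase gene Pxn fell by 3.53 ± 0.08, and the receptor genes NimC1 and Sr-CI by 4.32 ± 0.41 and 1.14 ± 0.14. Summed, the plasmatocyte genes held 5216 to 5288 CPM in S2 cells and 1198 to 1227 CPM in control males.

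The crystal cell gene PPO2, for a melanizing phenoloxidase, fell to 0.146, 0 and 0.027 CPM in S2 cells, against 291, 279 and 285 CPM in control males. The crystal cell factor gene lz had 0.918 ± 0.24 CPM in S2 cells and 1.84 ± 0.16 CPM in control males. Of the lamellocyte genes, mthl4 had 185, 174 and 182 CPM in S2 cells, against 0.122, 0 and 0.170 CPM in control males, and PPO3 rose by 8.12 ± 0.20, while atilla fell by 7.70 ± 0.15. No class of blood cell thus had all of its markers higher in S2 cells.

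Immune effector genes were high in S2 cells. All 13 antimicrobial peptide genes passed as higher, 12 of them at least 8-fold, where 12.6% of all genes were. CecC, a cecropin gene, had 62.0, 77.2 and 66.4 CPM in S2 cells, against 0, 0.050 and 0 CPM in control males, a ratio of 4565 with a counting interval of 819 to 180348 (95%, exact, counting error only). The attacin gene AttB had 41.6, 37.7 and 42.3 CPM in S2 cells and rested on 1 count in control males, and the diptericin gene DptB rose by 7.77 ± 0.20 on the log2 scale. The 13 genes summed to 276 to 282 CPM in S2 cells and 0.754 to 1.02 CPM in control males. At such male levels they entered the test largely through the S2 libraries, so the count of higher genes adds little to the levels. Levels of the peptides in S2 cells ranged from 0.507 CPM for Def to 68.5 CPM for CecC.

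Of 19 genes of the Toll and Imd pathways, which switch on these peptides, 15 were higher and 4 lower, where 46% and 44.8% of all genes were. PGRP-SA, a receptor of the Toll pathway for bacterial cell walls, had 119, 92.3 and 108 CPM in S2 cells, against 0.122, 0.201 and 0.128 CPM in control males. The Toll ligand gene spz rose by 3.06 ± 0.07, the Imd receptor gene PGRP-LC by 1.71 ± 0.07, the caspase gene Dredd by 2.44 ± 0.06 and the NF-kappaB factor gene Rel by 2.02 ± 0.06 on the log2 scale. Tl itself, the Toll receptor gene, fell by 1.34 ± 0.13, its inhibitor gene cact by 0.80 ± 0.06 and the receptor gene PGRP-LE by 2.45 ± 0.11. Without male replicate 2 the count was 14 higher and 4 lower.

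Genes of the JAK-STAT pathway, another route of immune signalling, were mixed, with 4 of 8 higher and 2 lower, near the 46% of all genes that were higher. The ligand gene upd3 rose by 4.75 ± 0.19, the factor gene Stat92E by 1.68 ± 0.08 and the target and inhibitor gene Socs36E, at 694, 673 and 690 CPM in S2 cells against 77.6, 76.2 and 79.6 CPM in control males, by 3.02 ± 0.06. The receptor gene dome and the kinase gene hop had log2 differences of -0.02 ± 0.08 and -0.03 ± 0.06 and did not pass. Of the members that fell, the ligand gene upd1 had 0.059, 0.049 and 0 CPM in S2 cells, against 6.07, 5.99 and 5.10 CPM in control males, and the receptor gene et fell by 1.70 ± 0.15. TotM, a stress peptide gene, had 161, 134 and 151 CPM in S2 cells, against 0.041, 0.050 and 0 CPM in control males. Matrix genes of the basement membrane, which blood cells and fat body secrete in embryos and larvae, were 6 higher and 3 lower, where 46% and 44.8% of all genes were. The collagen IV gene vkg rose by 1.19 ± 0.10 and the laminin gene LanA by 1.01 ± 0.08, while the nidogen gene Ndg fell by 5.63 ± 0.08.

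**Figure D5:**
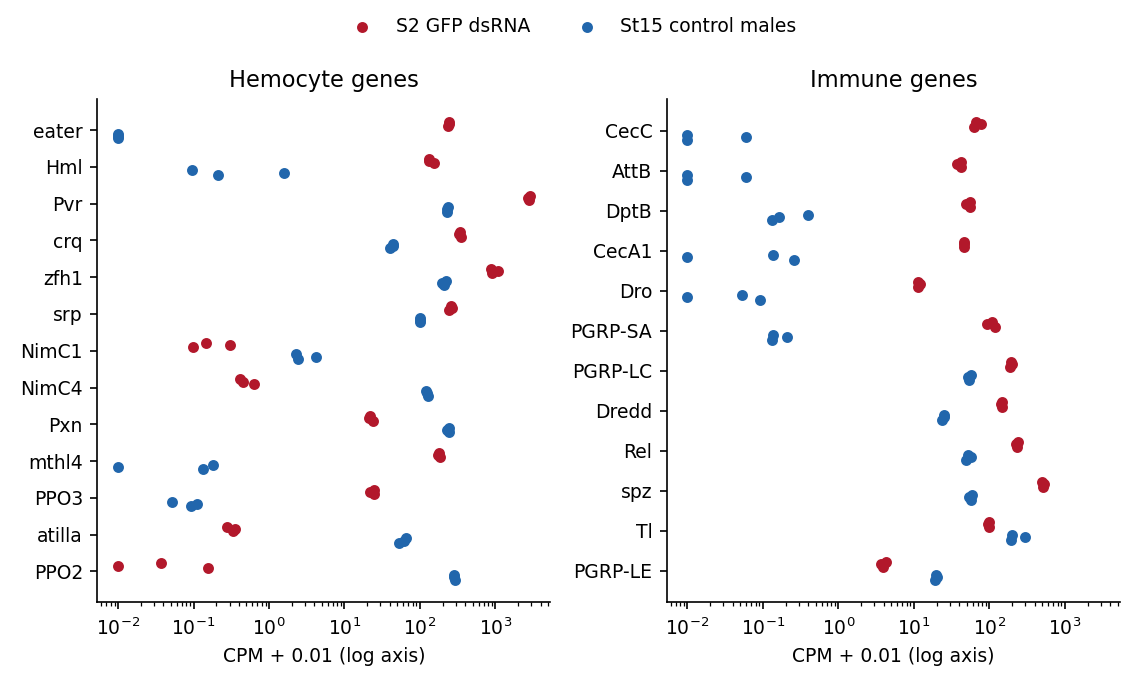
CPM + 0.01 (log axis) of blood cell genes and immune genes, with 1 point per library for S2 cells and St15 control males. eater, Hml and the antimicrobial peptide genes separate the groups with S2 cells higher, and NimC4, atilla and PPO2 with S2 cells lower.

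Most genes of differentiated tissues were low or at the edge of detection in S2 cells. Of 21 muscle genes 19 were lower, with a median log2 fold change of -10.47, where 44.8% of all genes were lower. Act57B had 0.029, 0 and 0 CPM in S2 cells, which is 1 count in all, against 10674, 10236 and 10838 CPM in control males. The myosin heavy chain gene Mhc had 0.614, 0.537 and 0.705 CPM in S2 cells and averaged 7340 CPM in control males. The nuclear anchor gene Msp300 was the exception, at 3370, 3631 and 3332 CPM in S2 cells against 1012, 999.8 and 1015 CPM in control males, a rise of 1.65 ± 0.07. Zasp52 averaged 239 CPM in S2 cells and 238 CPM in control males and did not pass.

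Of 14 neuronal genes 13 were lower, where 44.8% of all genes were. The RNA-binding protein gene fne fell by 11.58 ± 0.15, the synaptobrevin gene nSyb fell by 9.53 ± 0.13 and the synaptotagmin gene Syt1 fell by 8.88 ± 0.10 on the log2 scale. elav, the neuronal marker most often used, still had 72.1, 88.0 and 75.1 CPM in S2 cells, against 262, 253 and 259 CPM in control males. The syntaxin gene Syx1A, which works in secretion in many cells, rose by 0.81 ± 0.11. Of 9 glial genes 8 were lower, among them the glial master gene repo, which fell by 9.29 ± 0.22.

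Most cuticle and epithelial genes tested were lower. Of 124 cuticle protein genes listed, only 70 passed the count filter and were tested. Of these, 59 were lower and 2 higher, where 44.8% and 46% of all genes were. Their median log2 fold change was -9.26, or -8.35 with the 23 genes at 0 in a group set at their bound. Without male replicate 2, which stood apart in cuticle genes, 67 of 71 were lower and 2 higher, with a median of -8.58. The 70 genes had no more than 28.3 CPM in all in S2 cells, against 4787 to 5751 CPM in control males. Members this low in S2 cells could enter the test through the males alone, so the share lower was largely set by the filter. All 11 chitin and tracheal tube genes were lower, including the chitin synthase gene kkv, which fell by 11.99 ± 0.15, and the tracheal factor gene trh, which fell by 8.77 ± 0.14. Of 11 epithelial junction genes 10 were lower. The E-cadherin gene shg had 19.6, 21.9 and 20.9 CPM in S2 cells, against 400, 412 and 387 CPM in control males, and fell by 4.38 ± 0.07, and baz, a polarity gene, rose by 0.51 ± 0.07.

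Fat body and midgut genes followed the same direction, and salivary gland genes did so only in part. All 7 fat body genes tested, of 11 listed, and all 11 midgut genes tested, of 29 listed, were lower, where 44.8% of all genes were. The midgut genes tested summed to 3.23 to 3.56 CPM in S2 cells and 264 to 296 CPM in control males. Genes so low in S2 cells could enter the test through the males alone, so their shared direction was largely set by the count filter. apolpp had 2.63, 2.29 and 2.71 CPM in S2 cells and averaged 4770 CPM in control males. Of 7 salivary gland genes tested, of 15 listed, 5 were lower and 2 higher. Their summed level overlapped, at 335 to 420 CPM in S2 cells and 392 to 411 CPM in control males. The gland's determinant fkh fell by 9.99 ± 0.15, while CrebA, a factor of secretory capacity, rose by 0.91 ± 0.11. The gland marker gene sage also passed as higher, and its rise was 0.39 ± 0.13 in the fit without male replicate 2.

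Hox genes, which set the identity of body segments, were close to silent in S2 cells. All 8 Hox genes were at least 8-fold lower, where 24.1% of all genes were, and their summed level was 0.298 to 0.342 CPM in S2 cells and 639 to 647 CPM in control males. At such levels they entered the test through the males, so the levels carry the description and the count adds little. Antp had 0.029, 0.195 and 0.027 CPM in S2 cells, against 121, 124 and 123 CPM in control males. The segmentation genes differed from them in their summed level, which was 336 to 367 CPM in S2 cells and 413 to 432 CPM in control males. Even so, 12 of 14 passed as lower and 2 as higher at any fold, where 44.8% and 46% of all genes did. Most of that level in S2 cells was hry, a repressor gene that was higher at 257, 287 and 261 CPM in S2 cells against 44.9, 57.2 and 49.0 CPM in control males. gsb averaged 8.29 CPM in S2 cells and 5.38 CPM in control males, a rise of 0.51 ± 0.17 that did not pass with RLE scaling (adjusted p = 0.0531).

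Hormone response genes were mixed. The ecdysone receptor genes EcR and usp rose by 0.78 ± 0.06 and 0.82 ± 0.08, while the hormone-induced genes ImpE1, Hr4 and Hr3 fell by 12.58 ± 0.17, 11.47 ± 0.17 and 10.17 ± 0.11 on the log2 scale. Eip93F, a late response factor gene, had 12.5, 19.4 and 11.7 CPM in S2 cells, against 0.978, 0.754 and 1.19 CPM in control males.

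Proliferation genes were higher in S2 cells. Of 18 mitotic genes 16 were higher and none lower, where 46% and 44.8% of all genes were, with a median log2 fold change of 2.31. stg, the Cdc25 phosphatase gene that times mitosis in embryos, had 524, 572 and 587 CPM in S2 cells, against 73.9, 74.9 and 71.6 CPM in control males. The kinesin gene pav and the kinase gene aurA rose by 3.86 ± 0.13 and 3.72 ± 0.09. CycB had 294, 304 and 303 CPM in S2 cells, against 39.2, 307 and 36.0 CPM in control males, where replicate 2 reached the level of S2 cells. It did not pass with that library, and rose by 2.82 ± 0.07 without it, when 17 of the 18 were higher. Of 14 DNA replication genes 13 were higher, led by Orc2 with a rise of 2.88 ± 0.13.

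Housekeeping groups moved in both directions by smaller steps. Of 84 cytoplasmic ribosomal protein genes 77 were lower and 4 higher, where 44.8% and 46% of all genes were, with a median log2 fold change of -0.79, and of 69 oxidative phosphorylation genes 63 were lower and 5 higher, with a median of -1.35. The largest rises among oxidative phosphorylation genes were of paralogs, as were some of the largest falls among ribosomal protein genes. RpS5b had 0.392 ± 0.17 CPM in S2 cells and 67.1 ± 3.4 CPM in control males, and ND-51L2 had 8.84 ± 0.47 CPM in S2 cells and no count in control males, at least 199-fold higher. Reads of near-identical copies can be split between them, so paralogs are uncertain. Of 33 proteasome genes 28 were higher and 1 lower, with a median of 0.69, and the paralog Rpt6R had 95.6 ± 3.0 CPM in S2 cells and 0.739 ± 0.089 CPM in control males (SD, n = 3 each). These medians follow the scaling. Against 0.04 in the fit reported, the median over all genes tested was -0.09 with RLE scaling and 0.16 with none, and with none the ribosomal protein median was -0.67, the oxidative phosphorylation median -1.23 and the proteasome median 0.81.

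Of 12 glycolysis genes 3 were higher and 6 lower, where 46% and 44.8% of all genes were. Ald1, for aldolase, fell by 3.66 ± 0.08 and Ldh by 2.11 ± 0.10, while PyK, for pyruvate kinase, rose by 1.92 ± 0.08 on the log2 scale. The chaperone gene Hsp83 had 3245, 3167 and 3208 CPM in S2 cells, against 1009, 835 and 706 CPM in control males, whereas the small heat shock gene Hsp26 averaged 7.07 ± 0.58 CPM in S2 cells and ranged from 88.6 to 244 CPM in control males.

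Genes of small RNA pathways and of the germline differed in both directions. Of 9 small RNA processing genes 7 were higher and 2 lower, where 46% and 44.8% of all genes were, and with RLE scaling 5 were higher. Dcr-2, which cuts long dsRNA into siRNAs, had 297, 272 and 287 CPM in S2 cells, against 44.5, 56.5 and 43.4 CPM in control males, a rise of 2.45 ± 0.08. AGO2, its effector gene, rose by 0.88 ± 0.06. The S2 cells had received dsRNA, whereas the mothers of the embryos carried the Gal4 driver and the control labelled controlRNAi. Treatment thus also differs between the groups, and its part in these levels was not tested. Of 11 germline genes 6 were higher and 3 lower, a share of higher genes near the 46% of all genes. krimp, a Tudor protein gene of the piRNA pathway, had 146, 145 and 142 CPM in S2 cells, against 1.18, 3.12 and 1.32 CPM in control males, and spn-E rose by 3.58 ± 0.09. piwi was the exception among the Argonaute genes of that pathway, at 5.63 ± 0.30 CPM in S2 cells and 9.54 ± 1.7 CPM in control males, a fall of 0.87 ± 0.14. AGO3 and mael did not pass with male replicate 2, which had 18.6 and 21.1 CPM of them, and rose by 4.10 ± 0.12 and 3.54 ± 0.11 without it, when 8 of the 11 genes were higher.

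Among X-linked protein-coding genes the largest rise was that of Ir7g, an ionotropic receptor gene, which had 157, 136 and 151 CPM in S2 cells and no count in control males, at least 3397-fold higher. CG34330 had 108, 86.5 and 96.1 CPM in S2 cells, against 0, 0.101 and 0.043 CPM in control males. Others among the 8 largest were amn, a neuropeptide gene, CG14443 and CG10801, which averaged 86.2, 140.2 and 119 CPM in S2 cells, against 0.048, 0.090 and 0.151 CPM in control males. Here amn overlaps Hers, CG14443 overlaps pigs and CG10801 overlaps CG16781, so these values are uncertain. The rule also named Tsf1, for transferrin, at 105, 89.3 and 110 CPM in S2 cells against 0.122, 0 and 0.043 CPM in control males, and by the transcription factor gene mamo, which rose by 9.03 ± 0.27. Among X-linked genes at least 8-fold lower, CG9411 was at least 59543-fold lower, CG9095 at least 21264-fold lower and RhoGAP1A, which overlaps tyn, at least 5932-fold lower in S2 cells. The rule for large rises named mostly small noncoding RNAs, such as snRNA:U2:34ABa with 9839, 9676 and 9450.0 CPM in S2 cells and no count in control males, so the protein-coding genes in this direction were named by the same rule after the values were seen. Those include eater, CG33462, at least 1319-fold higher, and Cyp4ac2, a cytochrome P450 gene, which rose by 10.66 ± 0.14 and overlaps tkv.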

How the data were processed

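The authors deposited whole-number counts, not normalized, in tables of genes by libraries. Per the submitters' processing notes the build is dm6. The sources used here name no aligner, counter, annotation or strand setting. All libraries were made from polyA RNA with the TruSeq Stranded mRNA kit, per the labels' protocols.

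The S2 and St15 tables were joined by FlyBase ID (17558 genes, 17252 matched to Ensembl release 115, which left 4.42 to 4.61% of counts without an annotation). Genes that overlap others or have near-identical copies are uncertain. The fit used edgeR 4.0.16 in R 4.3.3 with TMM scaling, filterByExpr, 1 mean per group and the robust quasi-likelihood test. A gene near 0 in 1 group can pass filterByExpr through the other group alone, and its direction in the test is then largely set by the filter. P-values were adjusted by Benjamini-Hochberg over every tested gene, with a threshold of 0.05. CPM uses library totals, fold changes also the scaling factors, and SE is the log2 fold change over the root of F. On simulated data with 11196 genes the fit recovered 87% of genes changed by 1 and 98% of those changed by 3 on the log2 scale, with 20 false calls beside 200 changed genes. The simulation set all other genes to the same level in both groups. It therefore does not show how the fit performs where most genes and the RNA content differ, as they do here. The smallest p of the exact permutation test is 0.1. A fold against a group at 0 counts uses a floor of 3 counts over the group.

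Replicate numbers 1 and 2 occur in both groups. Deviations of same-numbered libraries correlated at 0.02 and -0.01 over genes, under the 0.1 needed, so no pairing was used. Members and gene lists were chosen with earlier results of these data known. Named genes are the 15 largest changes per direction among genes of at least 50 CPM, 8 per direction on X, up to 4 per list and direction, all MSL, sex, Y and blood cell members and the 10 highest levels per kb; a part is printed, and single list members were added for contrast. The list members PPO1, trol, wupA, para, VAChT, btl, FASN1, wg, vas, Mcm3, Orc1 and br were not analysed here. Alternatives were DESeq2 1.42.0, other scalings, filters and fold thresholds, no robust option, a replicate block, all libraries of both tables, each library left out and, added after seeing the data, protein-coding nuclear genes only.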

Additional observations from a re-analysis of the deposited data

How the results depend on the processing

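roX1, roX2, their ratio and the X to autosome level per length kept their direction under each alternative run, although the exact tests of 3 against 3 could not pass. Genes that passed numbered 7550 to 11639, against 10408. Higher genes outnumbered lower ones in the fit reported, but lower ones were more numerous with RLE scaling, with DESeq2 (4900 higher, 5395 lower), with no filter (5791 and 5848), with all libraries of both tables, on protein-coding nuclear genes and without S2 replicate 1 (5017 and 5256) or 3 (5005 and 5215). Genes at least 8-fold apart numbered 2306 with at least 10 CPM in 3 libraries, against 4202, and 3408 to 5157 in the other alternatives at that fold, with 3490 at least 16-fold and 5268 at least 4-fold apart. The X to autosome ratio, 0.005 higher in S2 cells, became 0.0362 without the 50 genes with the most counts (exact permutation p = 0.1, the smallest possible), -0.0125 without chromosome 4 and -0.0264 without roX1 and roX2, and ranged from -0.010 to 0.013 as single libraries were left out (exact permutation p of 0.2 to 1 in these others). The X minus autosome median log2 fold change, 0.0236, was -0.0387 with at least 10 CPM, 0.0642 with no filter, 0.0352 with all libraries of both tables, 0.0529 on protein-coding nuclear genes, and 0.0270 to 0.0545 as single libraries were left out. The cause was not tested. With the replicate number as a block 9899 genes passed, 4209 of them at least 8-fold apart, and the X minus autosome median was 0.0417. Numbers 1 and 2 did not pair the libraries.

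Of 4096 values of 260 named genes under the alternatives, 4011 kept direction and side, 70 lost and 11 gained a pass, and 4 turned, for msl-2 (-0.06 in the fit reported, 0.0613 with no scaling factor, 0.0524 on protein-coding nuclear genes) and fl(2)d (-0.05, then 0.0694 and 0.0608). Depth of 19880371 to 36863478 counts limits levels near 0, where 531 genes had no count in a group. Groups of 3 are too small for a test of single outlying libraries.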
